A study of Mus musculus with 6 samples.

Results

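The response of NF-IL6 KI(LAP) knock-in macrophages to LPS plus IFN-γ was taken from 2 of the 6 Affymetrix arrays of a mouse series: the knock-in array labelled as stimulated for 12 h and the untreated knock-in array. All 12422 probe sets other than the Affymetrix controls were compared between them. The cells were peritoneal exudate cells (PEC), which the labels also call peritoneal macrophages, and every array carries the strain label C57BL/6. The groups used were KI(LAP) cells with LPS+IFN-gamma for 12 h, untreated KI(LAP) cells, wild-type (WT) cells with LPS+IFN-gamma, for which no time is given, untreated WT cells, NF-IL6 knockout (KO) cells with LPS+IFN-gamma for 12 h, and untreated KO cells. Each group had 1 array, so there is no replicate error and no test for any value below. The labels describe neither the knock-in allele nor its expression, and give no age or dose and no number of mice behind an array. The comparison addresses which genes macrophages with the LAP allele turn up or down on stimulation, and how this stands beside the WT and KO cells.

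NF-IL6 is another name of C/EBPβ, which belongs to the leucine-zipper family and is encoded by the single-exon gene Cebpb. Its mRNA is translated from alternative start sites into the activating forms called LAP and a short form, LIP, that lacks most of the activating region and can act as an inhibitor. In macrophages, LPS is sensed through Toll-like receptor 4 and activates NF-κB, AP-1 and the IRF factors that induce type I interferon, while IFN-γ acts through its receptor and JAK kinases. Together these signals give classical activation, which includes secretion of cytokines and chemokines, nitric oxide production and antigen presentation. C/EBPβ is known as a regulator of a part of these genes, and of genes of alternative activation such as Arg1.

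Signals are linear MAS5 intensities, which are comparable between arrays for the same probe set but not between probe sets. Signals under a floor of 98.0, the 40th percentile of all values, were set to that floor before the log2 ratio was taken. Each of 6767 named genes stands for its brightest probe set. A gene is said to have risen or fallen where its log2 change reached 1 in size, a rule on size and not a test. Where a signal lay under the floor the change is a lower bound, and its fold is given as "at least". The only repeat measurement within the pair of arrays was that of 1286 genes with several probe sets: the log2 changes of their brightest and second probe sets differed by a median of 0.37, and 12.9% of these pairs lay 1 or more apart. Of 208 genes that rose or fell by their brightest probe set, the second one had the same sign in 149, passed 1 in that direction in 79, stayed at the floor in 32 and passed 1 in the opposite direction in 0.

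On the 6 arrays the median signal was 131 on the stimulated and 147 on the untreated KI array, and 151 to 185 on the WT and KO arrays. Probe sets above the floor made up 55.7% and 57.4% of all probe sets on the stimulated and untreated KI arrays and 59.0% to 65.8% on the others, so the KI arrays had the fewest detected probe sets. The 3'/5' signal ratios of the actin and Gapdh controls lay between 0.84 and 1.18 on all 6 arrays. The control for 18S rRNA was at 207 and 167 on the stimulated and untreated KI arrays, at 259 and 302 on the stimulated WT and KO arrays, and at 847 and 872 on the untreated WT and KO arrays. Cebpb, which checks the genotype labels, had a signal of 5889.9 in stimulated and 2284 in untreated KI cells, against 9329 and 5492 in WT cells and 59 and 12.7 in KO cells. It was thus present on both KI arrays and under the floor on both KO arrays, and this probe set does not tell LAP from LIP. The labels give no sex, and sex-linked genes differed between the pairs: Xist was at 356 and 473 on the stimulated and untreated KI arrays, 641 and 127 on the WT arrays and 241 and 104 on the KO arrays. The Y-linked gene Eif2s3y was under the floor on both KI arrays, at 82.4 and 150 on the WT arrays and 267 and 456 on the KO arrays. The Y-linked genes Kdm5d and Uty did not follow it. Kdm5d was above the floor only on the untreated WT array, at 111, and Uty was under it on all 6 arrays. The part of such differences between the mice in the results below was not tested.

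Stimulation moved genes in both directions in KI cells, and the largest rises were larger than the largest falls. Of 6767 genes, 398 rose (5.88%) and 582 fell (8.6%), and the counts of each gene list below are to be read beside these shares. Among probe sets 521 of 9344 rose (5.58%) and 748 fell (8.01%), so 41.1% of the changes were rises. This split depends on the scaling: with each array centred on its median, which moves the median KI change over probe sets by 0.19, 668 probe sets rose and 496 fell, and 57.4% of the changes were rises. The sizes differed in the other direction. Rises of at least 2 on the log2 scale were seen for 145 genes and falls of that size for 77, rises of at least 4 for 45 genes and falls of that size for 2, and rises of at least 6 for 8 genes and falls of that size for 0. The genes that rose had a median signal of 1538 after stimulation and 325 untreated, and those that fell one of 253 after stimulation and 749.7 untreated. Of the rising genes 75 were under the floor in untreated cells, and of the falling genes 97 were under it after stimulation. Probe sets that rose held 16.5% of all signal on the stimulated KI array and 3.62% on the untreated one, as the choice of probe sets fixes in direction. The median change over all genes was -0.03. The counts depend on the floor and on the size asked for: 661 genes rose and 937 fell with the floor at the 20th percentile, and 228 rose and 213 fell by at least 1.5.

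**Figure D1:**
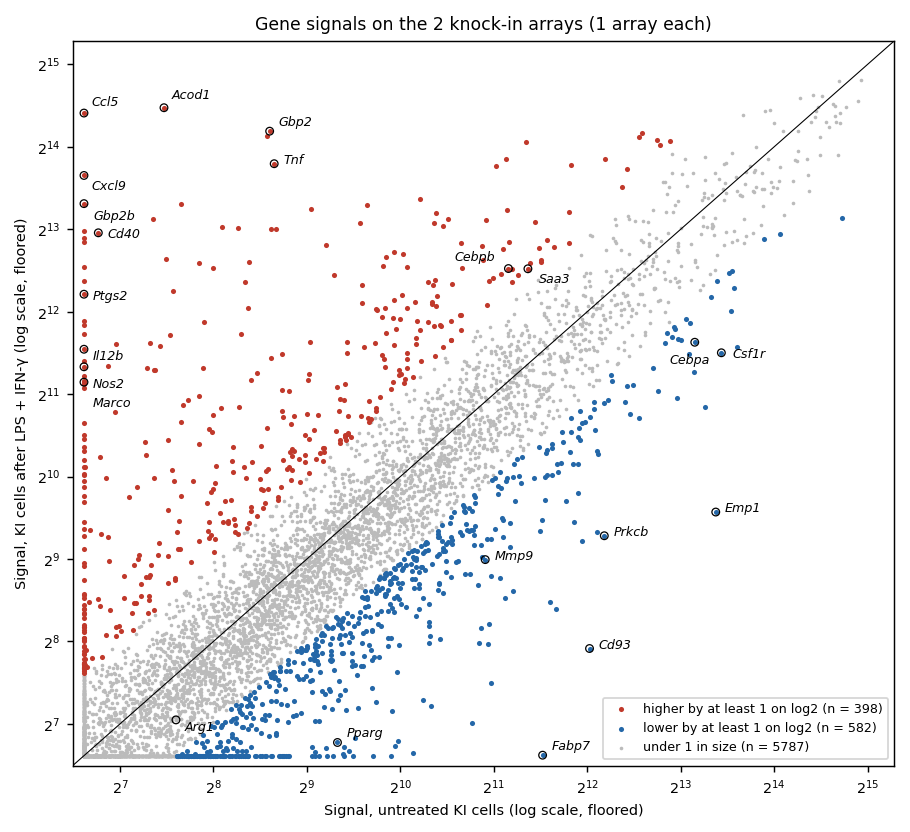
Signal of each of 6767 genes after LPS plus IFN-γ (vertical axis) against untreated (horizontal axis) in KI cells, both on log scales with values under the floor set to 98.0; each point is 1 gene and the line marks equal signal. Of the 398 genes that rose, 145 lie at least 2 above the line on the log2 scale, among them Ccl5, Acod1 and Cxcl9. Of the 582 that fell, 77 lie at least 2 below it.

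The macrophage identity of the KI arrays was read from marker genes. Of 12 listed macrophage markers 11 were measured, all above the floor on a KI array, with a summed signal of 58509 after stimulation and 74856 untreated. Lyz2, which encodes lysozyme, was at 14548 stimulated and 19431 untreated, and Mpeg1, which encodes perforin-2, was at 13481 stimulated and 14240.4 untreated. Within the list Aif1 (log2 change 3.40) and the high-affinity Fc receptor Fcgr1 (1.80) rose, along with 2 other members, while Csf1r (-1.93), the receptor for macrophage colony-stimulating factor, Itgam (-1.85), which encodes CD11b, and Msr1 (-1.51), a scavenger receptor, fell. The falls of Csf1r and Msr1 shrank to -0.89 and -0.98 when all probe sets of each gene were averaged. Of 10 listed markers of large resident peritoneal macrophages 4 were measured. They were low except for Cd93, which is described with the falling genes. By the probe set used, Gata6, the defining transcription factor of these cells, was under the floor on both KI arrays at 71.5 stimulated and 46.2 untreated. Its second probe set was at 37 stimulated and 114 untreated, the latter above the floor. In RNA from bulk cells, fewer cells of a type and less RNA per cell cannot be told apart, which holds for every marker gene here.

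By floored signals the list of rises was headed by Ccl5, which attracts T cells and monocytes, with a signal of 21775 after stimulation and 35.2 untreated, at least 222-fold. Cxcl9, an IFN-γ-induced chemokine that acts on CXCR3, was at 12885 after stimulation and 5.8 untreated (at least 131-fold). Acod1, the enzyme that makes itaconate from the citric acid cycle, was at 22775 after stimulation and 177 untreated (128-fold). All of these were near or under the floor in untreated KI cells and among the bright genes of the stimulated array. Among genes under the floor untreated, the order of the rises is only the order of their stimulated signals. The other 11 of the first 14 rises, among genes that reached the 75th percentile of signal, were the guanylate-binding proteins Gbp2b, Gbp3 and Gbp2, the interferon-induced genes Ifit2, Ifit1 and Iigp1, the costimulatory receptor Cd40, Gm9706, AW112010, Cst7 and Ptgs2. Their floored log2 changes ran from 5.59 to 6.70. The same 14 genes changed by 4.37 to 7.99 in WT cells and by 3.99 to 7.07 in KO cells.

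Genes of the interferon response were among the highest. All 11 measured interferon-inducible GTPases, which attack the vacuoles of intracellular pathogens or viral complexes, rose in KI cells, with a median log2 change of 4.75, against 4.37 in WT and 3.99 in KO cells. Gbp2b was at 10167 after stimulation and 64.4 untreated (at least 104-fold). Iigp1 was at 7353 after stimulation and 10.2 untreated (at least 75-fold), Gbp3 at 10117 stimulated and 201 untreated, Gbp2 at 18697 stimulated and 388 untreated, and the antiviral Mx1 at 3388 stimulated and 58.8 untreated (at least 34.6-fold). Probe sets of such close family members may bind each other's transcripts. Of 20 measured antiviral effectors 17 rose and 0 fell, with a median of 2.70 in KI, 2.95 in WT and 3.26 in KO cells. Ifit2, which binds viral RNA, was at 8065 after stimulation and 38.3 untreated, and its relative Ifit1 at 7594 stimulated and 20 untreated. Isg15, a ubiquitin-like modifier, was at 17886 after stimulation and 382 untreated, Usp18, which removes it from proteins, at 6369 stimulated and 181 untreated, and Rsad2, which encodes viperin, at 8372 stimulated and 273 untreated. Oas1g, an oligoadenylate synthetase, was under the floor on both KI arrays at 56.5 stimulated and 15.2 untreated. Ifi202b, a p200-family gene whose expression is known to differ between inbred mouse strains, was also under it at 1 stimulated and 7.1 untreated, against 3719 and 934 in WT cells and 3726 and 432 in KO cells.

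The promoters of 3 interferon-response genes are shown because their letters include the interferon-stimulated response element that gives this group its name. They are the 250 bases before the annotated start in RefSeq's annotation of GRCm38.p6, on the strand of the gene, with matches in capitals. The search used a pair of GAAA with any 2 bases between them for the interferon-stimulated response element (ISRE), GGG followed by any 2 bases and TTTCC for NF-κB, TTGCNNAA for C/EBP, TGACGTCA for the cyclic AMP element (CRE) and ATCAC and CCAC with any 1 base between them for the sterol element (SRE), on both strands. Isg15 (chr4:156200819-156201068, minus strand) holds 3 overlapping ISRE matches 78 to 57 bases before its start. Ifit1 (chr19:34640639-34640888, plus strand) holds 2, and Gbp2b (chr3:142594597-142594846, plus strand) holds an ISRE match 137 to 128 bases before its start and a C/EBP match 111 to 104 bases before it.
Isg15: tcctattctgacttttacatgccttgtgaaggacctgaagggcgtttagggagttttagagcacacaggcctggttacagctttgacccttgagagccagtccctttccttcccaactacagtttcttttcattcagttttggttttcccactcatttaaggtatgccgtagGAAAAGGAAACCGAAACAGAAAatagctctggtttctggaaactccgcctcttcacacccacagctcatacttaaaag
Ifit1: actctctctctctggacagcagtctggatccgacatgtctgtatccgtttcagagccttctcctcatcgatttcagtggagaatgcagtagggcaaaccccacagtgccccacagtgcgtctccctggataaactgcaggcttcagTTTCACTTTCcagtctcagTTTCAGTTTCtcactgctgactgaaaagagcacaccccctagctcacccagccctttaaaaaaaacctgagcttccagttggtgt
Gbp2b: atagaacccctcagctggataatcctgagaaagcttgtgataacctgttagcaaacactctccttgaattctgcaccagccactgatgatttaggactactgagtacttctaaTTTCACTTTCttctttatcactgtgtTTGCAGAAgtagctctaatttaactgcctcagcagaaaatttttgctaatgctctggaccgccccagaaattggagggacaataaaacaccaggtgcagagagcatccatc
A match is a description of the letters and not evidence of binding in these cells.

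Across the promoter table, 330 of the 398 rising genes and 482 of the 582 falling genes had at least 1 window. The ISRE letters were in 28 of 439 windows of rising genes (6.38%), in 13 of 73 windows of genes that rose by 3 or more on the log2 scale (17.8%), in 2.40% of windows of falling genes, in 2.39% of windows of measured genes that changed by less than 1, and in 2.98% of all 32851 windows. The C/EBP letters were in 11.2% of windows of rising genes, 13.7% of those of genes that rose by at least 3, 8.55% of those of falling genes, 8.07% of those that changed by less than 1 and 9.56% of all windows. The NF-κB letters were in 3.19% of windows of rising genes, 1.37% where the rise was at least 3, 1.20% of windows of falling genes, 1.65% of those that changed by less than 1 and 1.41% of all. The CRE letters were in 2.51% of windows of rising genes, 1.37% where the rise was at least 3, 1.65% of windows of falling genes, 2.25% of those that changed by less than 1 and 1.55% of all. The SRE letters were in 0 of 439 windows of rising genes, 1 of 667 windows of falling genes and 0.19% of all. Genes with several annotated starts gave several windows, and overlapping windows share letters.

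**Figure D2:**
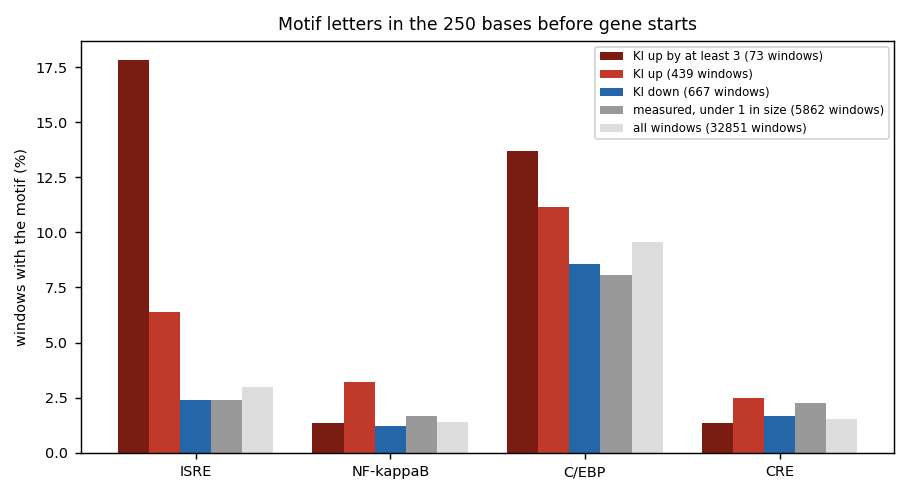
Share of promoter windows (250 bases before the start, vertical axis in percent) that hold the letters of each motif, for genes that rose by at least 3, rose, fell, or changed by less than 1 in KI cells and for all windows of the table. The ISRE bar stands highest for the genes that rose by at least 3, at 17.8%, against 2.98% of all windows.

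The transcription factors of this response also moved. Of 12 measured IRF and STAT factors 4 rose and 1 fell. Irf7, which amplifies type I interferon, was at 8217 after stimulation and 407 untreated (log2 change 4.34), Irf1, the IFN-γ-induced factor, at 8667 stimulated and 759.9 untreated (3.51), and Irf8, a factor of the monocyte lineage, at 8956 stimulated and 1464 untreated (2.61). Stat3, which transmits signals of the IL-6 family and of IL-10, rose by 1.13. Irf4, a factor of alternative activation, fell to a signal of 30.4 after stimulation, against 277 untreated, a fall that shrank to -0.14 with a higher floor at the 60th percentile. Stat6, which transmits IL-4 signals, was at 1936 stimulated and 2097 untreated. Among 26 receptors, JAK kinases and SOCS proteins, 9 rose and 3 fell. The feedback inhibitors of cytokine signalling rose most: Socs1 was at 6178 after stimulation and 230.3 untreated, and Socs3 at 2592 stimulated and 117 untreated. Il15ra, a subunit of the IL-15 receptor, rose by 3.49 and the kinase gene Jak2 by 2.52. Csf2rb, the shared beta subunit of the GM-CSF receptor, was at 2517 after stimulation and 2398 untreated.

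Secreted signals rose in KI cells. Of 21 measured chemokines 12 rose and 2 fell, with a median log2 change of 2.34 in KI cells, against 0.88 in WT and 0.81 in KO cells. Besides Ccl5 and Cxcl9, Cxcl10, another ligand of CXCR3, was at 3649 after stimulation and 7.6 untreated (at least 37.2-fold), and Ccl7, a ligand for monocytes, at 3114 stimulated and 124 untreated. Ccl22, a ligand of CCR4 better known from alternative activation, was at 6199 after stimulation and 333 untreated. Cxcl14 fell by 3.50 on the log2 scale, to just above the floor, against a signal of 1128 untreated. The counts differed less than the medians, since 10 chemokines rose in each of the other genotypes.

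Of 18 measured inflammatory cytokines 8 rose and 0 fell, with a median of 0.91 in KI cells, against 1.63 in WT and 1.24 in KO cells, where 12 and 10 rose. The KI median depends on the floor, and was 1.35 with 10 risen at the 20th percentile and 0.44 with 6 risen at the 60th. Tnf was at 14223 after stimulation and 402 untreated in KI cells (35.4-fold). Il12b, the p40 subunit of IL-12 and IL-23, was at 2988 after stimulation and 27.7 untreated (at least 30.5-fold), and its stimulated signals in WT and KO cells were 4066 and 8779. Il1b was at 2396 after stimulation and 68 untreated in KI cells, against 7088 and 53.7 in WT cells and 3869.8 and 121 in KO cells. Il1a was at 2302 after stimulation and 338 untreated. Il6 was at 659.5 after stimulation and 2.7 untreated in KI cells (at least 6.7-fold), against 1908 and 87.7 in WT cells and 1257 and 53.3 in KO cells. For Il12b, Il1b and Il6 the stimulated KI signal was the lowest of the 3 stimulated arrays, while for Tnf it was the highest. Csf3, the granulocyte colony-stimulating factor, was at 307 after stimulation and 159 untreated in KI cells, a log2 change of 0.95, against 1.33 in WT and 0.34 in KO cells. Tnfsf10, the death ligand TRAIL, stayed under the floor on both KI arrays. Of 10 chemokine receptors 2 rose and 2 fell: Ccr7, the lymph-node homing receptor, was at 335 after stimulation and 78.5 untreated and Ccrl2 at 1273 stimulated and 464 untreated, while Cxcr4, the receptor of CXCL12, was at 394 stimulated and 937 untreated. The other fall, that of Ccr1 (-1.05), was -0.86 with median centring, and the rise of Ccr7 was 0.42 with the floor at the 60th percentile.

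Of 19 measured NF-κB subunits and feedback genes 14 rose and 0 fell, with a median of 1.58 in KI, 1.36 in WT and 1.39 in KO cells. Traf1, an adaptor of TNF receptors, was at 2161 after stimulation and 64 untreated (at least 22.1-fold). The atypical IκB proteins Bcl3 and Nfkbiz, which work in the nucleus, were at 1315 and 935 after stimulation and at 66.2 and 78.5 untreated. Nfkb2, the p100 and p52 subunit, rose by 2.82 and Birc3, an inhibitor of apoptosis, by 2.62. Ikbkb, the kinase that releases NF-κB, was at 256 after stimulation and 278 untreated. Of 8 measured genes of the Toll-like receptor pathway 3 rose and 0 fell, these being Cd180 (1.46), Tlr6 (1.44) and the adaptor Myd88 (1.29). Cd14, the LPS co-receptor, was at 2642 after stimulation and 5109 untreated, a log2 change of -0.95.

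Feedback and survival genes showed changes in both directions. Of 20 stress kinases, phosphatases and feedback genes 4 rose and 4 fell. Ier3 was at 4227 after stimulation and 331 untreated, the MAP kinase phosphatase Dusp1 at 5109 stimulated and 1305 untreated, and Gadd45b, a stress sensor that binds a MAP kinase kinase, at 4241 stimulated and 915 untreated. Its relative Gadd45a fell by 2.52 on the log2 scale and Dusp6, a phosphatase of ERK, fell to 144 after stimulation, against 684 untreated. Gadd45b changed by -0.65 in WT and 0.80 in KO cells and Dusp6 by 0.58 and -1.37. Of 20 apoptosis genes 5 rose and 1 fell: the inflammatory caspases Casp4 and Casp1 were at 1224 and 3159 after stimulation and at 155 and 848 untreated, and Cflar, which blocks caspase-8, was at 367 stimulated and 109 untreated, a rise that was 0.55 with the floor at the 60th percentile. Bcl2l11, which encodes the death-promoting BIM, fell (-1.58), to -0.70 with all its probe sets averaged.

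Genes of antigen presentation rose in part. Of 13 genes of MHC class I loading and the immunoproteasome 7 rose and 1 fell, with a median of 1.33 in KI, 1.87 in WT and 1.85 in KO cells. Tap1, the peptide transporter, was at 10076 after stimulation and 799.8 untreated (12.6-fold), and its partner Tap2 at 1542 stimulated and 382 untreated. The immunoproteasome subunit Psmb9 was at 5989 stimulated and 1074 untreated, Psmb10 at 9675 stimulated and 2257 untreated, and the activator Psme1 at 8833 stimulated and 1927 untreated. The class I chains themselves were bright in both states: H2-D1 was at 28524 after stimulation and 26600.3 untreated, and B2m at 16325 stimulated and 14298 untreated. Of 12 class II genes 4 rose, namely H2-DMb1 (1.42), H2-Ab1 (1.40), H2-DMa (1.30) and H2-Eb1 (1.13), and the protease gene Lgmn fell (-1.22). The invariant chain Cd74 was at 25338 after stimulation and 21855 untreated. Of 9 costimulation and maturation genes 5 rose and 0 fell: Cd40 was at 7955 after stimulation and 109 untreated (73-fold), Cd86 at 4889 stimulated and 189 untreated, the adhesion molecule Icam1 at 8227 stimulated and 391 untreated, and Cd83 at 6782 stimulated and 976 untreated. Cd80, the close relative of Cd86, was near the floor at 113 stimulated and 86.8 untreated. Of 29 genes of the core proteasome 4 rose and 0 fell, with a median of 0.55 in KI, 0.24 in WT and 0.47 in KO cells, and Psma5 had the highest change at 1.75.

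Genes linked to C/EBPβ in the literature were read as a list of 25 measured members, of which 13 rose and 5 fell, with a median of 1.16 in KI, 0.77 in WT and 1.19 in KO cells. The KI median was 0.96 with a pseudocount in place of the floor, and 0.56 where the floor was raised to the 60th percentile. This list overlaps the cytokines above. Cebpb itself rose in KI cells by 1.37, and its change in WT cells was 0.76. Its relative Cebpa, a factor of resting myeloid cells, fell to 3169 after stimulation, against 9097 untreated, a log2 change of -1.52 in KI, -1.77 in WT and -2.39 in KO cells. Cebpd was at 784 after stimulation and 539 untreated. Of all 25 leucine-zipper factors measured 6 rose and 3 fell. Batf, the dimer partner of JUN proteins, was at 865 after stimulation and 137 untreated and Junb at 4428 stimulated and 1294 untreated, while Jun fell to 105, against 588 untreated.

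Several enzymes and receptors of this list responded with different sizes in the 3 genotypes. Ptgs2, the inducible cyclooxygenase, was at 4746 after stimulation and 20.6 untreated (at least 48.4-fold) in KI cells, and its log2 change was at least 5.60 in KI, 5.93 in WT and 6.15 in KO cells. Ptges, the prostaglandin E synthase that works with it, was at 289.7 after stimulation and 124 untreated in KI cells, against 2525 and 199.5 in WT cells and 242 and 60.6 in KO cells. Its log2 change was 1.22 in KI, 3.66 in WT and at least 1.30 in KO cells, and the KI change was 0.21 where the floor was raised to the 60th percentile. Slc7a2, an arginine transporter, was at 985 after stimulation and 220.1 untreated in KI cells, against 4156 and 251 in WT cells and 807 and 255 in KO cells. Marco, a scavenger receptor for bacteria, stood the other way: it was at 2266 after stimulation and 21.1 untreated in KI cells (at least 23.1-fold), against 2055 and 202 in WT cells and 256 and 12.1 in KO cells. The stimulated KI signal was closer to that of WT cells for Marco and closer to that of KO cells for Ptges and Slc7a2. For Nos2 and Ptgs2 it was also closer to that of WT cells, but the log2 changes of all 3 genotypes lay close together there, so this does not set WT apart from KO.

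Saa3, an acute-phase protein made by macrophages, was at 5879 after stimulation and 2639 untreated in KI cells, against 27344 and 16042 in WT cells and 2443 and 459.8 in KO cells. Both KI signals lay between those of WT and KO. Its promoter and that of Il6 are shown because both carry the C/EBP letters and both genes are known C/EBPβ targets. Il6 (chr5:30012864-30013113, plus strand) holds a C/EBP match 128 to 121 bases and an NF-κB match 44 to 35 bases before its start. Saa3 (chr7:46715677-46715926, minus strand) holds an ISRE match 125 to 116 bases and a C/EBP match 99 to 92 bases before its start.
Il6: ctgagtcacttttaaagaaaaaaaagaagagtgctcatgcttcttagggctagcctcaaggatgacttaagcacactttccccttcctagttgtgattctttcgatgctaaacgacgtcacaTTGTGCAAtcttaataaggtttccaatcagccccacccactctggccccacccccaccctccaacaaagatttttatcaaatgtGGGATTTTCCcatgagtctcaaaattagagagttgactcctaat
Saa3: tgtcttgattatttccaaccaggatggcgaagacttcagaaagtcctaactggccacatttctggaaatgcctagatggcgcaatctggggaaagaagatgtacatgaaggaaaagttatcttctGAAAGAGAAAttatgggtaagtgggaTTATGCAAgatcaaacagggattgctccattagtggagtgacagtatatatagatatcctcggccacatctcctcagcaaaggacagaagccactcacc
The matches, in capitals, are of the same motifs as above.

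**Figure D3:**
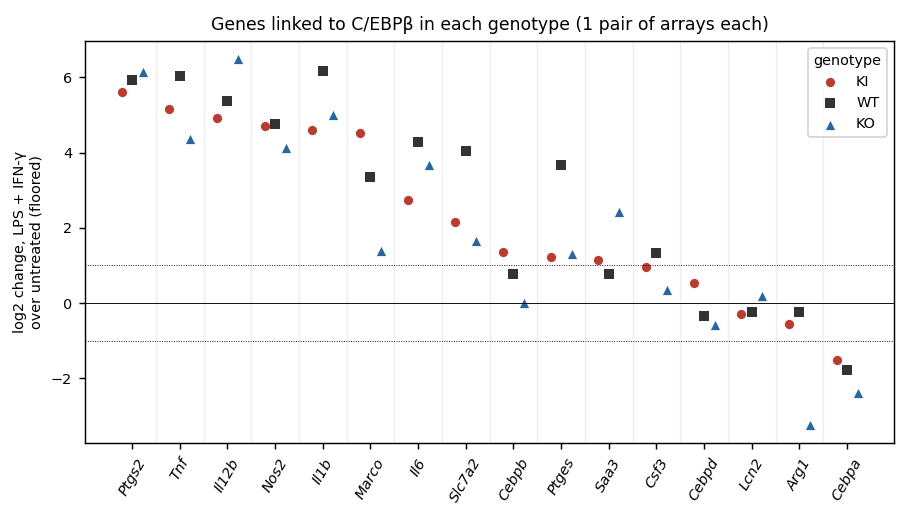
Log2 change on stimulation (vertical axis, floored signals) of 16 genes linked to C/EBPβ in KI (circles), WT (squares) and KO cells (triangles), each point from 1 pair of arrays; dotted lines mark a change of 1. Points of the 3 genotypes lie close together for Ptgs2 and Nos2 and apart for Marco, Slc7a2, Ptges and Arg1.

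In the acute-phase and secreted defence list Saa3 was the only one of 12 measured genes to rise in KI cells, and 2 fell. Lcn2, which binds bacterial siderophores, was at 221 after stimulation and 271 untreated, and the protease inhibitor Slpi was at 906 stimulated and 821 untreated, against 4592 and 2119 in WT cells. S100a8, a calcium-binding protein of neutrophils and activated macrophages, fell to 211 after stimulation, against 556 untreated. The fall of Hp, which encodes haptoglobin, was -1.06, and -0.88 with median centring. Neutrophil markers as a list were low in KI cells, with 7 of 11 measured and a summed signal of 603 after stimulation and 1210 untreated, and the defining marker Ly6g was at 16.5 stimulated and 4.8 untreated.

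Of 11 genes of arginine use, nitric oxide and biopterin 3 rose and 1 fell in KI cells. Nos2, the inducible nitric oxide synthase, was at 2579 after stimulation and 85.9 untreated (at least 26.3-fold), and Gch1, the first enzyme of its biopterin cofactor, at 2846 stimulated and 896 untreated. Arg1, the arginase that competes for the same substrate, was at 132 after stimulation and 194 untreated in KI cells, against 3320.1 and 3949 in WT cells and 388 and 3674 in KO cells. The untreated KI signal of Arg1 was thus far under both other untreated signals, and lay so near the floor that no fall of 1 or more could have been measured. Among 14 prostaglandin and leukotriene genes 4 rose and 1 fell. Pla2g4a, the phospholipase that releases arachidonic acid, was at 939 after stimulation and 145 untreated, the prostaglandin E2 receptor Ptger4 was at 919 stimulated and 255 untreated, and Lta4h, which makes leukotriene B4, fell to 1261, against 3613 untreated.

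The falling genes were led by Fabp7, a fatty-acid-binding protein, at 98.4 after stimulation and 2942 untreated in KI cells (29.9-fold lower). Cd93, a lectin-like receptor of myeloid and endothelial cells, fell to 241, against 4167 untreated, and Emp1, a membrane protein, to 760.2, against 10630.2 untreated. Mrc1, the mannose receptor of alternatively activated macrophages, was at 79.8 after stimulation, under the floor, and 956 untreated (at least 9.8-fold lower). The others of the 14 largest falls among genes that reached the 75th percentile were Adssl1, Cxcl14, the sialyltransferase St8sia4, the lipase Daglb, Mxd4, which partners MAX, the histidine-degrading Hal, the integrin subunit Itgb5, Sesn1, Nav2 and the transcription factor Lyl1. Their log2 changes ran from -3.76 to -2.97. Of the 14 genes, 13 also fell in WT and 14 in KO cells; the exception, Nav2, was at 118 after stimulation and 149 untreated in WT cells.

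Falls outnumbered rises among the scavenger and lectin receptors, the alternative-activation genes and the lipid genes, as they did over all genes (582 against 398). Of 17 scavenger and lectin receptors 8 fell and 3 rose, with a median of -0.62 in KI, -0.48 in WT and -0.97 in KO cells. Clec4a2, an inhibitory lectin receptor, fell to 113 after stimulation, against 733 untreated, while Clec4e, the receptor Mincle for mycobacterial glycolipid, rose to 484, against 98 untreated, a rise of 0.95 with the floor at the 60th percentile. Of 14 alternative-activation and resident macrophage genes 5 fell and 2 rose, with a median of -0.51 in KI, -0.85 in WT and -1.28 in KO cells. That KI median was -0.33 with median centring or with the floor at the 60th percentile. Of 5 Fc receptors Fcgr1 rose and Fcgr2b, the inhibitory receptor, fell (-1.55). Of 25 genes of lipid uptake, efflux and nuclear receptors 12 fell and 2 rose, with a median of -0.89 in KI, -0.27 in WT and -0.90 in KO cells. Pparg, the nuclear receptor of fatty-acid handling, fell to 109.5 after stimulation, against 642 untreated, the desaturase Scd2 to 453, against 1656 untreated, and the members that rose included Fabp3 (2.10). Abcg1, a sterol exporter, was at 2584 stimulated and 2606 untreated.

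Cholesterol synthesis genes, which SREBP2 controls, had the lowest median of the pathway lists in KI cells, except with the floor at the 60th percentile. Of 14 measured genes 7 fell and 0 rose in KI cells, with a median of -1.17, whereas 2 fell in WT cells, with a median of -0.12, and 2 in KO cells, with a median of -0.53. The KI median was -0.99 with median centring, and -0.58 where the floor was raised to the 60th percentile, where the lipid uptake (-0.73), scavenger receptor (-0.70), endoplasmic reticulum chaperone (-0.63) and lysosome (-0.59) lists lay lower. Sqle, squalene epoxidase, was at 568 after stimulation and 2310.3 untreated in KI cells, against 774 and 646 in WT cells and 513 and 776 in KO cells. Hmgcs1, at the head of the pathway, was at 709.6 after stimulation and 2191 untreated in KI cells, against 633 and 1044 in WT cells and 734 and 1691 in KO cells. Idi1 was at 415 after stimulation and 1173 untreated in KI cells, against 351 and 445 in WT cells and 412 and 439 in KO cells. For Sqle, Hmgcs1 and Idi1 the stimulated signals of the 3 genotypes lay closer together than the untreated ones, and the untreated KI signal was the highest of the 3 untreated arrays. These genes were named for the size of their KI change. That choice itself favours a high untreated KI signal, so the pattern is not a separate result about the pathway. Dhcr7 and Cyp51 fell as well (-1.94 and -1.51), with untreated signals of 375 and 375, and each change was -0.58 with that higher floor. The difference between genotypes has no test with 1 array a group.

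Chaperones of the endoplasmic reticulum also had a negative median in KI cells. Of 17 measured genes of the unfolded protein response 5 fell and 0 rose in KI cells, with a median of -0.63, against 0.05 in WT and -0.21 in KO cells. Dnajc3, an inhibitor of the kinase PERK, was at 183 after stimulation and 649 untreated in KI cells, against 270.4 and 135 in WT cells and 284 and 338 in KO cells. Its KI fall of -1.82 rests on the brightest of 3 probe sets, the others having changed by -0.89 and -0.84. The disulphide isomerases Pdia3 and Pdia4 were at 1688 and 318 after stimulation and at 4187 and 787 untreated, and Dnajb9 was at 313 stimulated and 815 untreated. Of 27 lysosomal genes 5 fell and 1 rose, with a median of -0.59 in KI, -0.43 in WT and -0.39 in KO cells. The cathepsin gene Ctsk fell to 1539.9 after stimulation, against 3858 untreated, the cholesterol transporter Npc1 to 1902, against 4649 untreated, and Ctsc, which activates serine proteases, rose to 4714, against 1038 untreated.

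**Figure D4:**
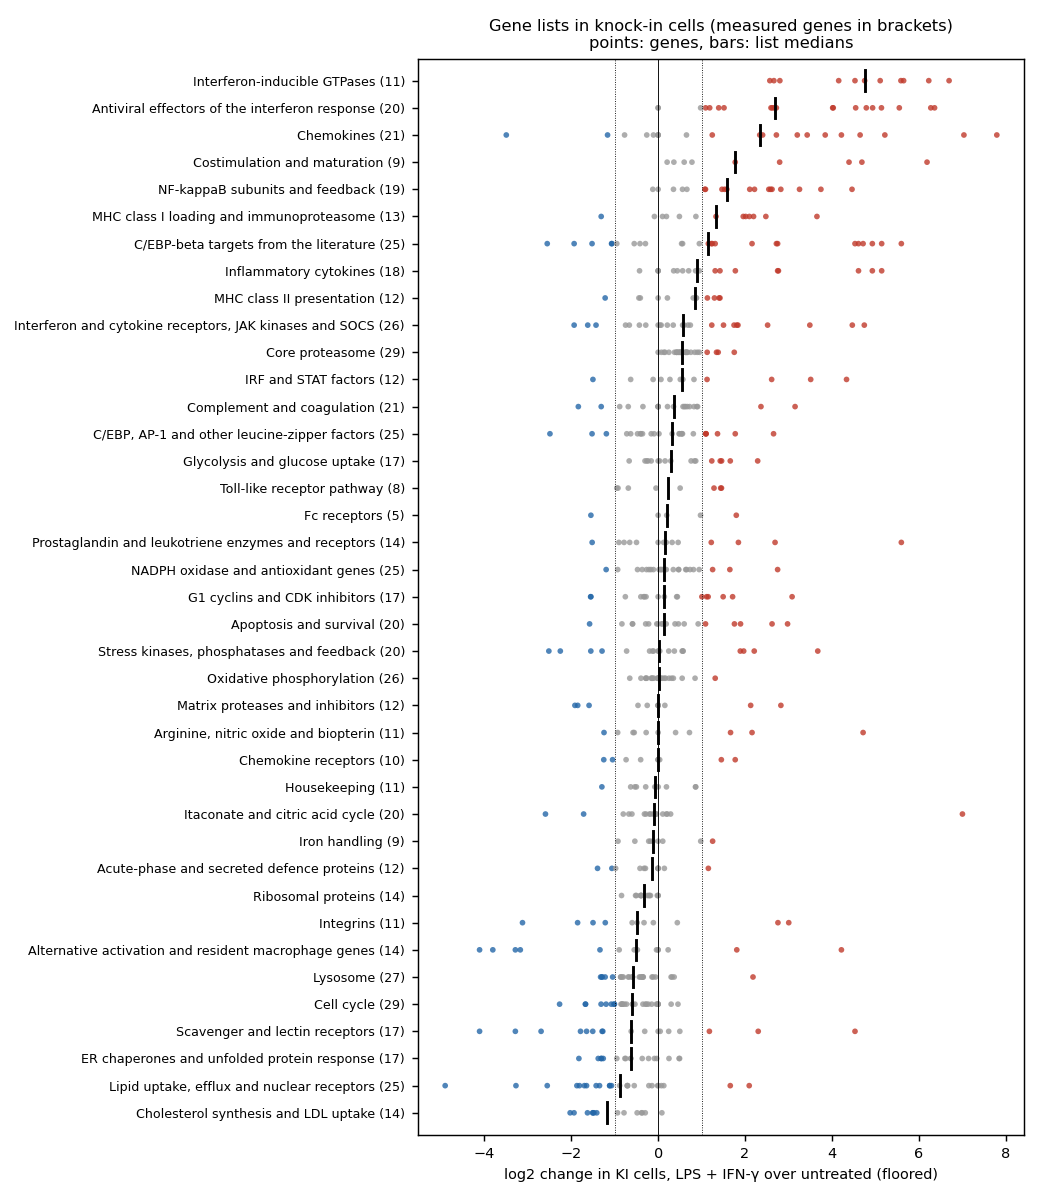
Log2 change on stimulation in KI cells (horizontal axis, floored signals) of the measured members of each gene list with at least 5 of them, sorted by list median; points are genes, coloured where the change reaches 1 in size, and black bars are medians. Interferon-inducible GTPases stand at the top with a median of 4.75 and cholesterol synthesis at the bottom with -1.17.

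Energy metabolism changed at single steps. Of 17 glycolysis genes 5 rose and 0 fell, with a median of 0.29 in KI, 0.66 in WT and 0.41 in KO cells. The phosphofructokinases Pfkp and Pfkl were at 4190.4 and 3624 after stimulation and at 856 and 1316 untreated, Hif1a, the hypoxia factor that drives this pathway, was at 14791 stimulated and 4679 untreated, and the glucose transporter Slc2a1 was at 2425 stimulated and 1030.4 untreated. Hk2, hexokinase 2, rose by 1.43 in KI cells, against 4.04 in WT and 1.81 in KO cells, with untreated signals of 1078 in KI, 208 in WT cells and 766 in KO cells. In the citric acid cycle list of 20 genes only Acod1 rose, and Idh1 and Idh2, the NADP-dependent isocitrate dehydrogenases, fell to 368 and 218 after stimulation, against 2224 and 714 untreated. Of 26 oxidative phosphorylation genes 1 rose, Cycs (1.31), and 0 fell, with a median of 0.01. Of 25 NADPH oxidase and antioxidant genes 3 rose and 1 fell: Sod2, the mitochondrial superoxide dismutase, was at 2874 after stimulation and 427 untreated, the metallothionein Mt2 at 8735 stimulated and 2782 untreated, and Hmox1, haem oxygenase, at 16706 stimulated and 7004 untreated. Hmox1 was also the only one of 9 iron-handling genes to rise, and the ferritin chain Fth1 was at 28729.6 stimulated and 31155 untreated.

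Proliferation genes had a negative median in each genotype. Of 29 measured cell cycle genes 8 fell and 0 rose in KI cells, with a median of -0.59, against -0.40 in WT and -1.39 in KO cells, where 6 and 15 fell. The KI median was -0.27 with the floor at the 60th percentile. Stmn1, a microtubule regulator, was at 173 after stimulation and 833 untreated in KI cells, the cyclin Ccna2 at 167 stimulated and 534 untreated, and the kinase Cdk1 at 102 stimulated and 325 untreated, a fall that was -0.37 with that floor. Pcna was at 5461 after stimulation and 5622 untreated. Of 17 G1 cyclins and inhibitors 6 rose and 2 fell: Ccnd2 was at 831 after stimulation and 7 untreated, and Cdkn1a, the inhibitor p21, at 3794 stimulated and 1156 untreated. Cdkn1c, the inhibitor p57, fell to 1150.3 in KI cells, against 3363 untreated, and both KI signals exceeded the WT signals of 195 and 257 and the KO signals of 190.2 and 172.

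At the cell surface and in the matrix the changes were again mixed. Of 11 integrin genes 4 fell and 2 rose: Itga5, the fibronectin receptor subunit, was at 1615 after stimulation and 201 untreated, and Itgal, which encodes CD11a, at 1724 stimulated and 255 untreated. Itgax, which encodes CD11c, fell to 3141 in KI cells, against 7301 untreated, whereas it was at 1629.8 after stimulation and 816 untreated in WT and at 1526 and 1799 in KO cells. Itgam was at 349 after stimulation and 1263 untreated in KI cells, against 722 and 474 in WT cells. Of 12 matrix proteases and inhibitors 3 fell and 2 rose, the inhibitor Timp1 at 6518 after stimulation and 919.6 untreated and the membrane protease Mmp14 at 3927 stimulated and 897 untreated. Mmp12, the macrophage elastase, fell to 9038, against 27211 untreated. Of 21 complement and coagulation genes 2 rose and 2 fell, where 5.88% of all genes rose and 8.6% fell. Procr, the endothelial protein C receptor, was at 10531 after stimulation and 1185 untreated, and the protease C1ra at 988 stimulated and 192 untreated. The anaphylatoxin receptors C3ar1 and C5ar1 fell (-1.84 and -1.31). Of 14 ribosomal protein genes 0 passed 1 in either direction, with a median of -0.32. Of 11 housekeeping genes 1 fell, Gusb (-1.29), and the probe set used for Actb changed by 0.86 while its second probe set changed by -1.88.

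Some rising genes stood next to each other on the chromosomes. By the gene order of GRCm38.p6, 88 of 398 rising genes (22.1%) had a neighbouring measured gene that also rose, whereas 10.5% of the other genes lay next to one. For falling genes the shares were 18.9% and 16.2%. There were 8 runs of at least 3 rising neighbours. They included Gbp7, Gbp3, Gbp2b and Gbp2 on chromosome 3, Ccl2, Ccl7, Ccl12 and Ccl8 and the Schlafen genes Slfn2, Slfn1 and Slfn4 on chromosome 11, and Ifit2, Ifit3 and Ifit1 on chromosome 19. A run of 5, H2-DMb1, Psmb9, Tap1, Psmb8 and Tap2, lay in the MHC on chromosome 17. Runs of falling genes numbered 7, among them Pag1, Fabp5 and Fabp4 on chromosome 3 and Prss8, Itgam and Itgax on chromosome 7. Members of the Gbp, Ccl, Schlafen and Ifit runs are related in sequence, so their probe sets may share transcripts. The same holds for the pairs Fabp5 and Fabp4 and Itgam and Itgax. The falling runs not named above, such as Xpo7, Dok2 and Gfra2 on chromosome 14, hold no such family.

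The KI response was set beside those of the other pairs of arrays, which share no array with it. In WT cells 597 genes rose (8.82%) and 717 fell (10.6%), and in KO cells 456 rose (6.74%) and 703 fell (10.4%). Of the 398 genes that rose in KI cells, 267 also rose in WT cells, 67.1% of the KI and 44.7% of the WT genes, and 292 also rose in KO cells, 73.4% of the KI and 64.0% of the KO genes. Both other genotypes shared 237 (59.5%, or 39.3% with a lower floor at the 20th percentile), and 76 (19.1%) rose in neither. Of the 582 genes that fell in KI cells, 238 also fell in WT cells, 40.9% of the KI and 33.2% of the WT genes, and 334 in KO cells, 57.4% of the KI and 47.5% of the KO genes. Both other genotypes shared 195 (33.5%), and 205 (35.2%) fell in neither. Among genes that rose in both WT and KO cells, 73 of 310 did not reach 1 in KI cells, and among those that fell in both, 140 of 335 did not. The WT cells have no stated time of stimulation, so time and genotype cannot be told apart in the comparison with WT, and without the WT pair the shared part of the KI changes is that given for KO cells.

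The KI change lay above both other changes by at least 1 for 126 genes (1.86%) and below both by at least 1 for 118 genes (1.74%). These counts depend on the floor: they were 419 and 295 with the floor at the 20th percentile and 60 and 59 with it at the 60th. Of the 126, 34 rose in KI cells, 85 changed by less than 1 and 7 fell less than in the others. In 73 of the 126 the untreated KI signal stood apart from both other untreated signals by 1 or more on the log2 scale, while in 8 the stimulated KI signal did, and in 45 neither did. Of the 118 genes below both, 65 fell in KI cells, 49 changed by less than 1 and 4 rose less than in the others. The untreated KI signal stood apart in 57 of them, the stimulated one in 10, both in 1 and neither in 50. Over all 6767 genes the untreated KI signal lay below both others by at least 1 in 3.03% and above both in 1.98%, and the stimulated KI signal lay above both in 0.355% and below both in 1.05%. The untreated KI array thus stood apart more often over all genes too. Choosing the 126 and 118 genes by their KI change itself favours a KI signal apart from both others, so their counts do not measure an enrichment. Of the 126 genes 11 were under the floor on both KI arrays, as was 1 of the 118, so for these only the WT and KO signals changed measurably.

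Among the 12 genes farthest above both, leukotriene and chemokine-receptor genes started low in KI cells. Ltc4s, leukotriene C4 synthase, was at 94.5 after stimulation and 183 untreated in KI cells, against 245 and 3721 in WT cells and 223 and 4189 in KO cells. Ccr2, the receptor that brings monocytes into tissue, was at 665 after stimulation and 649 untreated in KI cells, against 267 and 2285 in WT cells and 860.2 and 5625 in KO cells. Plac8 was at 2025 after stimulation and 230.5 untreated in KI cells, against 3524 and 2016 in WT cells and 3966 and 2109 in KO cells. Cxcr4 was at 394 after stimulation and 937 untreated in KI cells, against 190.3 and 2416 in WT cells and 262 and 2331 in KO cells. All of these had their lowest untreated signal in KI cells. Map3k8, the kinase that links NF-κB1 to ERK, was at 415 after stimulation and 149.9 untreated in KI cells, against 285 and 376 in WT cells and 372 and 622 in KO cells, though its KI rise of 1.47 was 0.73 with all its probe sets averaged. Zfp787 and Hand1 lost their rise in the same way (0.62 and 0.76). Rnase4, Tmem70 and Scx completed the group with the B cell genes Igkv6-23 and Cd79b. Scx was under the floor on both KI arrays, at 59.3 stimulated and 45.7 untreated, so it shows no KI response, and it met the 75th percentile only through its untreated WT signal of 668. Zfp787 and Hand1 also met that percentile only through untreated WT signals, of 565 and 536, and Map3k8 only through its untreated KO signal of 622. Ltc4s, Rnase4, Igkv6-23 and Cd79b met it only on WT and KO arrays.

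The B cell genes were set beside lists of cell type markers, and Cd79b is itself a member of the B cell list. Of 12 listed B cell markers 8 were measured, with a summed signal of 2156 after stimulation and 2269 untreated on the KI arrays, against 3911 and 7436 on the WT and 3062 and 6579 on the KO arrays. On a KI array 7 of the 8 measured markers were above the floor. Cd79b, a chain of the B cell receptor, was at 106 after stimulation and 128 untreated in KI cells, against 206 and 1157 in WT cells and 209 and 890.1 in KO cells. Igkv6-23, an immunoglobulin segment, was at 391 after stimulation and 209 untreated in KI cells, against 1274 and 2835 in WT cells and 1148 and 2209 in KO cells. The B cell sum was thus lowest on the KI arrays and was lower after stimulation than untreated on the WT and KO arrays, and its part in the other differences between genotypes was not tested. Erythroid markers, 3 of 6 measured, summed to 341 after stimulation and 279 untreated on the KI arrays, against 1517 and 1998 on the WT and 1091 and 1347 on the KO arrays. Mast cell markers, 4 of 9 measured, summed to 1186 and 1731 on the KI, 1678 and 2331 on the WT and 1327 and 2103 on the KO arrays. Fibroblast markers, 8 of 8 measured, summed to 2956 and 3091 on the KI, 6590.4 and 5457 on the WT and 2871 and 2778 on the KO arrays. Dendritic cell markers, 6 of 10 measured, summed to 12620 and 10402 on the KI, 6670 and 4222 on the WT and 13465 and 4529 on the KO arrays, where Itgax and Cd83 made up most of the KI sums. T cell, NK cell and eosinophil lists had 2, 2 and 1 measured members, with KI sums of at most 364.

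Among the 12 genes farthest below both, several were high in untreated KI cells. Prkcb, a protein kinase C that signals from antigen and Fc receptors, was at 623 after stimulation and 4650.1 untreated in KI cells, against 422 and 417 in WT cells and 656 and 893 in KO cells, and its second probe set fell by 1.91 on the log2 scale in KI cells. Mmp9, a gelatinase, was at 509.6 after stimulation and 1922 untreated in KI cells, against 259 and 95.3 in WT cells and 169 and 138 in KO cells. Agap1 was at 296 after stimulation and 1973 untreated in KI cells, against 428 and 554 in WT cells and 403 and 497 in KO cells, but its second probe set changed by -0.62 in KI cells. Txnrd3, a thioredoxin reductase, was at 574 after stimulation and 1864 untreated in KI cells, against 1154 and 797 in WT cells and 752 and 705 in KO cells. The stimulated signals of Prkcb, Agap1 and Txnrd3 in KI cells were at or below the higher of the other stimulated signals, and the untreated ones were above both. Itpkb, a kinase of inositol phosphates, was as high in untreated KI cells as after stimulation, at 1927 stimulated and 1968 untreated, while it rose in WT (2.13) and KO cells (1.67). Vwf, Unc119, Nt5dc3, Gdap10, Mypop, S100a8 and Ifi202b were the others. Vwf, von Willebrand factor, is a marker of endothelium, and of the other endothelial markers measured Pecam1 and Emcn were under the floor on both KI arrays while Kdr was at 354 after stimulation and 142 untreated.

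**Figure D5:**
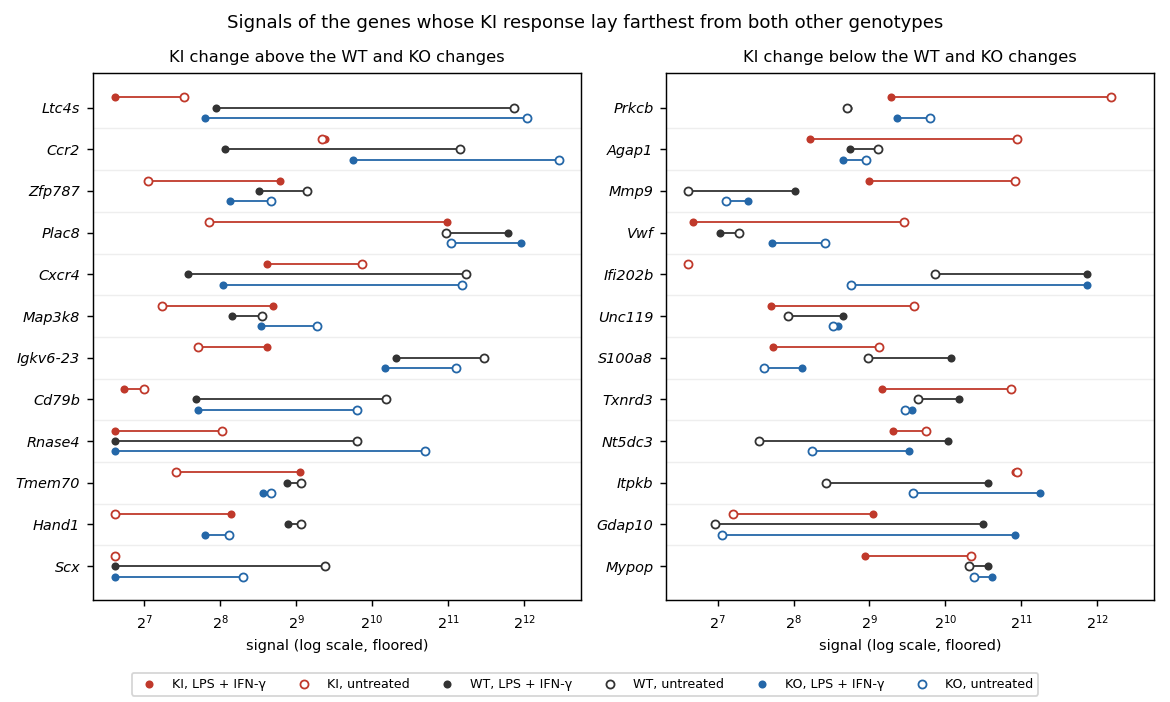
Signals on the 6 arrays (horizontal axes, log scale, floored at 98.0) of the 12 genes whose KI change lay farthest above (left) and the 12 farthest below (right) both the WT and KO changes; filled points are stimulated and open points untreated, each from 1 array. Untreated KI points lie left of both other untreated points for Ltc4s, Ccr2 and Plac8 and right of them for Prkcb, Agap1 and Mmp9.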

How the data were processed

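RNA of mouse peritoneal exudate cells was hybridised to 6 Affymetrix arrays, 1 for each of 3 genotypes in 2 states, from 6 µg of total RNA per the labels' protocols. The deposited values are linear signal intensities from MAS5, as the submitters' processing notes say. Which version, target signal and detection calls it used is not given in the sources used here. Their 2% trimmed means lay between 500.3 and 500.4, so the arrays were already on 1 scale. Groups were taken from the sample labels.

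Intensities were rescaled to the mean of those trimmed means, set to a floor at the 40th percentile (98.0) and converted to log2. After 66 control probe sets were left out, 9344 of 12422 probe sets lay above the floor on at least 1 array. Gene names came from the platform annotation (10833 probe sets with 1 symbol, 396 with several, 1193 with none), and those with several or none stayed unnamed. Where a gene had several probe sets the one with the highest mean log2 signal was used, which left 6767 genes. A change was counted at a log2 ratio of at least 1. With 1 array a group no test was possible, and the number of arrays limits the precision. The counting code was tested on simulated data, with changes past the counted size in brighter probe sets only. In that test false calls among unchanged probe sets were not examined, and no changes in dim probe sets were simulated. Computations used Python 3.11.15, numpy 2.4.6 and pandas 2.3.3.

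Promoters are RefSeq windows of GRCm38.p6, of which the 250 bases before the start were searched; gene order came from the RefSeq genes of the same assembly. The genes named are 16 fixed genes linked to C/EBPβ, the 14 largest rises and 14 largest falls in KI cells among genes with a KI array at or above the 75th percentile (531.8), up to 5 members of each list with the largest KI change and 1 bright member that changed by less than 0.25, and the 12 genes in each direction whose KI change lay farthest beyond both others with an array at that percentile. Runs of neighbours and the sex-linked genes were named after their values were seen. The genes, lists and rules were chosen with earlier results of these data known. Alternatives changed the floor, the scaling, the filter, the size of a counted change and the choice of probe set.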

Additional observations from a re-analysis of the deposited data

Results flagged for a closer look

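Of all 6767 genes, 8 moved down in the KI pair of arrays and up in the WT pair, each by at least 1 on the log2 scale, and 3 of them are among the genes chosen for naming. These differences were not tested, since each rests on 1 pair of arrays per genotype. For Mmp9, a gelatinase, the KI change minus the WT change was -3.32, with a KI change of -1.92 and a WT change of at least 1.40. For Dnajc3, a chaperone that restrains the kinase PERK, the KI change minus the WT change was -2.83, with a KI change of -1.82. Its WT change of 1.004 only just reached the counted size. Its signals were 183 stimulated and 649 untreated in KI cells and 270.4 and 135 in WT cells, and 2 other probe sets of the gene changed by -0.89 and -0.84 in KI cells. For S100a8 the KI change minus the WT change was -2.48, with a KI change of -1.40 and a WT change of 1.08. No group had the 4 samples needed to look for a sample far from the others.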

How the results depend on the processing

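No paired analysis was possible because each group has 1 array and the labels number no replicates. Of 1091 alternative values of the 182 named genes that rose or fell, 1053 stayed past 1 in the same direction and 0 had the opposite sign. Many of these genes were named for large KI changes, which favours staying past 1, so this share does not hold for all genes. For the same probe set, another floor or the pseudocount cannot reverse a sign. Median centring shifts all genes alike by 0.19, too little to reverse a counted change. The 0 opposite signs thus bear mainly on quantile normalization and on the averaging of probe sets. Of 48 alternative values of the 8 list medians past 1, 44 stayed past it. The values lost were mostly those of dim genes under a floor at the 60th percentile. The cause of the other shifts was not tested.

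Rising probe sets numbered 521, with a floor at the 20th percentile 954 and with a counted change of 1.5 299. Falling probe sets numbered 748, with these settings 1305 and 256, with median centring 496 and with the floor at the 60th percentile 461. Rising genes numbered 398, with a floor at the 20th percentile 661 and with a counted change of 1.5 228. Falling genes numbered 582, with these settings 937 and 213, and 385 with the floor at the 60th percentile. The share of changes that were rises, 41.1% of probe sets, was 49.1% after quantile normalization and 53.9% with a counted change of 1.5.

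The share of rising KI genes that rose in both other genotypes, 59.5%, was 39.3% with a floor at the 20th percentile, 66.6% with one at the 60th, 51.4% with a pseudocount of 50 in place of the floor, 54.6% with median centring and 67.6% for probe sets that reached the 75th percentile. For falling genes the share of 33.5% was 27.5% with a floor at the 20th percentile and 40.3% for probe sets that reached the 75th. Genes above both others numbered 126, and 419 and 60 with floors at the 20th and 60th percentiles, 193 with the pseudocount, 68 for probe sets that reached the 75th percentile and 32 with a counted change of 1.5. Genes below both numbered 118, and under the same settings without the pseudocount 295, 59, 66 and 29. Without the WT pair, an alternative chosen after seeing the data that loosens each criterion by its construction, the shares were 73.4% and 57.4% and the counts 343 and 258.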
